A study of Homo sapiens with 12 samples.

Results

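The integrated stress response genes examined here are the transcription factors ATF4, DDIT3 (CHOP), ATF3, ATF5 and CEBPB, and the feedback and effector genes TRIB3, PPP1R15A (GADD34), CHAC1, SESN2 and DDIT4 (REDD1). They were taken by symbol, which makes 10 genes of the 24559 gene symbols in the count table, and all 10 passed the filter on low counts with 16538 genes in total. RNA of polysome fractions was sequenced in 12 libraries from 3 established human triple-negative breast cancer (TNBC) cell lines, and every one of the 6 groups has 2 of them. Cells of the MDA-MB-231 and SUM159 lines carried a TRMT112 shRNA (KD) or a control construct (EV), and BT549 cells carried a TRMT112 expression construct (OE) or its empty vector (EV). The samples are labelled EV CTRL in all lines, although the methods of the study name a non-silencing shRNA as the control of both KD lines. KD cells and their controls were made by transfection and puromycin selection, OE cells and theirs by transfection and G418 selection, and whether each was 1 clone or a mixture of cells is not given in the sources used here. All samples are labelled as untreated, and the comparisons ask how these mRNAs in polysomes differed when TRMT112, the common activator subunit of several methyltransferases of rRNA, tRNA and protein, was lowered or raised.

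The integrated stress response is the pathway by which cells short of amino acids or haem, infected by viruses or with misfolded protein in the endoplasmic reticulum slow translation. The kinases EIF2AK1 to EIF2AK4 phosphorylate eIF2α, general initiation falls, and a few mRNAs with short upstream reading frames, above all ATF4, are translated better. ATF4 protein then raises genes of amino acid supply, its partners of the C/EBP and AP-1 families, and feedback genes such as PPP1R15A, which brings a phosphatase back to eIF2α. In these data the amount of an mRNA and its ribosome loading cannot be told apart, since only polysome RNA was sequenced, and ATF4 protein was not measured here. In bulk RNA, a change in every cell and a change in the share of cells that express a gene also cannot be told apart. Nothing in the labels says that the 2 libraries of a group came from separate cultures, so p-values measure the spread between these samples, which may be technical.

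A pair of sequence features bears on how such genes are known to be controlled, and both features were read from the GENCODE 44 annotation and the GRCh38 genome. The first is the leader, the part of an mRNA before its coding start. Of the 10 genes, 6 had an upstream ATG in the leader of their main transcript (the one with the most counts), as did 43.3% of 12967 coding main transcripts. In 3 of them, ATF4, ATF5 and DDIT3, an upstream frame ran past the coding start, as in 14.4% of those transcripts. The 6 genes with an upstream ATG had leaders of 177 (DDIT3) to 410 bases (TRIB3), the others of 113 (CHAC1) to 204 bases (CEBPB). The median over those transcripts was 146 bases, and the shares were not adjusted for leader length. ATF4 and ATF5 shared a layout of a short frame followed by a long overlapping one. The short frame just before the overlapping one is shown for both, in capitals from ATG to stop. ATF4-206 also has an earlier frame of 1 codon at position 25.
ATF4, transcript ATF4-206, position 87 of the mRNA: ATGGCGTATTAG
ATF5, transcript ATF5-201, position 70 of the mRNA: ATGGCTCTGTAG
Each of these frames has 3 codons before its stop. The overlapping frame that follows has 59 codons in ATF4 and also 59 codons in ATF5, and that of DDIT3 has 73 codons. ATF3, CEBPB, CHAC1 and DDIT4 had no upstream ATG in their main transcript.

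The second is DNA near the transcript start. The letters TGATGNAA, in either orientation, spell the core of the composite element to which ATF4 and C/EBP proteins bind together. A match lay within 1000 bases on either side of the start in 6 of the 10 genes, DDIT3, ATF3, TRIB3, CHAC1, SESN2 and DDIT4, against 17.3% of 16537 windows of the same length. The element TGACGTCA, the full cAMP response element, was present in PPP1R15A alone of the 10 and in 4.80% of all windows. The AP-1 letters TGACTCA were found in 5 of the 10 genes, ATF4, DDIT3, ATF5, CEBPB and PPP1R15A, and in 19.7% of all windows. Matches are shown for the genes whose changes are described next, 30 bases each on the strand of the gene, with the match in capitals and negative positions upstream.
DDIT3, position -306 from the transcript start, chr12:57520802-57520831 (minus strand): gttgccaaacaTTGCATCAtccccgccccc
ATF3, position -203, chr1:212608547-212608576 (plus strand): cctccccgaacTTGCATCAccagtgccccc
ATF3, position -21, chr1:212608729-212608758 (plus strand): tataaaaggggTGATGCAAcgctctccaag
CHAC1, position -209, chr15:40953251-40953280 (plus strand): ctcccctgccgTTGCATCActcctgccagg
TRIB3, position 132, chr20:380881-380910 (plus strand): ttagctccggtTTGCATCAcccggaccggg
SESN2, position 552, chr1:28260059-28260088 (plus strand): cgggacccgggTTGCATCAactggcagccg
DDIT4, position -946, chr10:72272967-72272996 (plus strand): gtcctcggtccTGATGCAAccgtctggatc
PPP1R15A, position -58, chr19:48872352-48872381 (plus strand): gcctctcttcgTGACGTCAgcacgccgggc
The stretch shown for TRIB3 occurred 3 times in identical letters, each copy 33 bases after the one before it, all in the first exon of TRIB3-201 before its coding part. The SESN2 match shown lies in an intron. A match of letters is not a measured binding site, and no binding was assayed in these samples.

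**Figure D1:**
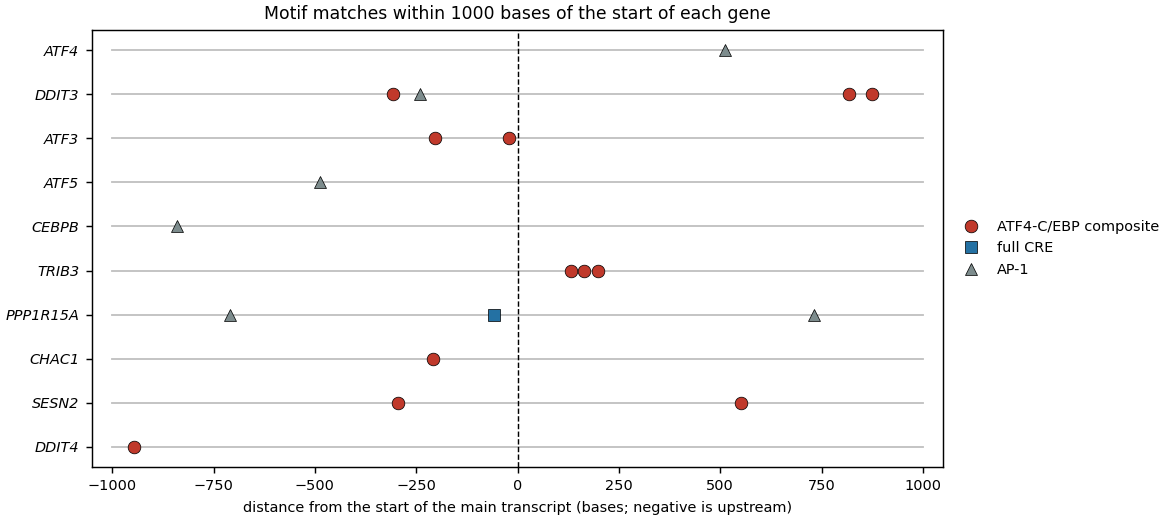
Positions of the motif matches along the 1000 bases on either side of the start of each gene's main transcript (x axis, bases; dashed line, the start), with 1 row per gene. Circles mark TGATGNAA, the square TGACGTCA and triangles TGACTCA; circles appear in 6 rows, and the 3 evenly spaced ones belong to TRIB3.

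TRMT112 itself was measured first, as a check of the labels. Levels are given on the counts-per-million scale (CPM), with library sizes adjusted by TMM factors. In MDA-MB-231 the level of TRMT112 was 173.4 and 164.7 CPM in EV and 73.8 and 70.4 CPM in KD, a log2 fold change of -1.23 (SE 0.04). SUM159 had 264.9 and 274.6 CPM in EV and 163.5 and 154.7 CPM in KD (log2 fold change -0.76, SE 0.04). BT549 went from 128.6 and 129.1 CPM in EV to 179.3 and 180.7 CPM in OE (log2 fold change 0.48, SE 0.04). No library went against its label. Total counts ranged from 22954226 to 27434677 per library, and the median absolute log2 difference of a gene between the 2 libraries of a group was 0.081 to 0.099. VIM, a mesenchymal marker, was at 645 to 2025 CPM, while the epithelial markers EPCAM and CDH1 reached at most 3.36 and 2.38, the progesterone receptor gene PGR at most 0.374 and the leukocyte marker PTPRC at most 0.579. ERBB2 was detected at 60.6 to 128 CPM. The values of these marker genes were scaled by total counts only, without TMM factors. ESR1, CD3E and VWF were not analysed here.

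Relative to other mRNAs in polysomes, the stress response genes were mostly lower after TRMT112 KD in both lines. They were also lower after TRMT112 OE in BT549. Levels are shares of the RNA sequenced, so a change in the total amount of polysome RNA is not seen in them. The study reports smaller polysome peaks after KD and larger ones after OE. By immunoblot it also reports less phosphorylated eIF2α in SUM159 KD. How that protein measure relates to the mRNA levels given here was not tested. In MDA-MB-231 KD, 8 of the 10 genes fell, 1 rose and 1 did not pass the test (edgeR's quasi-likelihood test, adjusted p under 0.05), where 16.5% of all genes tested fell and 21.2% rose. In SUM159 KD, 9 fell and 1 did not pass, against 31.4% of all genes that fell. In BT549 OE all 10 fell, against 35.0% of all genes. The median log2 fold change of the 10 genes was -0.34, -1.42 and -0.96 in the 3 comparisons, while the median of all genes was 0.00, 0.00 and 0.02. DDIT3, ATF3, TRIB3, PPP1R15A, CHAC1, SESN2 and DDIT4 fell in each of the 3 comparisons, 7 of 10 genes against 2.94% of all genes. Together with ATF4 and CEBPB, 9 of 10 fell in both SUM159 KD and BT549 OE, against 13.4% of all genes. When the main transcript of each gene was tested singly, ATF3, CEBPB, TRIB3 and CHAC1 lost their calls in MDA-MB-231 KD, and CEBPB also in SUM159 KD.

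The size of the changes differed between lines. A log2 fold change of -1 or below was reached by 1 of the 10 genes in MDA-MB-231 KD, by 7 in SUM159 KD and by 5 in BT549 OE, against 1.61%, 8.39% and 15.2% of all genes. In BT549 OE all 10 genes lay between the 5th and 95th percentile of all genes (-3.26 and 3.31). There 10.4% of all genes had a lower log2 fold change than DDIT4, and 33.8% a lower one than PPP1R15A. The KD effect itself was compared between the lines in the same model, as the log2 fold change in MDA-MB-231 minus that in SUM159. This difference was above 0 for 9 of the 10 genes and below 0 for ATF5, and all 10 passed the test, with 27.7% of all genes called in the first direction and 23.2% in the other. CHAC1 differed by 3.20 (SE 0.10), SESN2 by 1.85 (SE 0.09), DDIT4 by 1.71 (SE 0.04) and TRIB3 by 1.57 (SE 0.06). TRMT112 was lowered less in SUM159, where these genes fell more, and its own difference was -0.47 (SE 0.06).

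**Figure D2:**
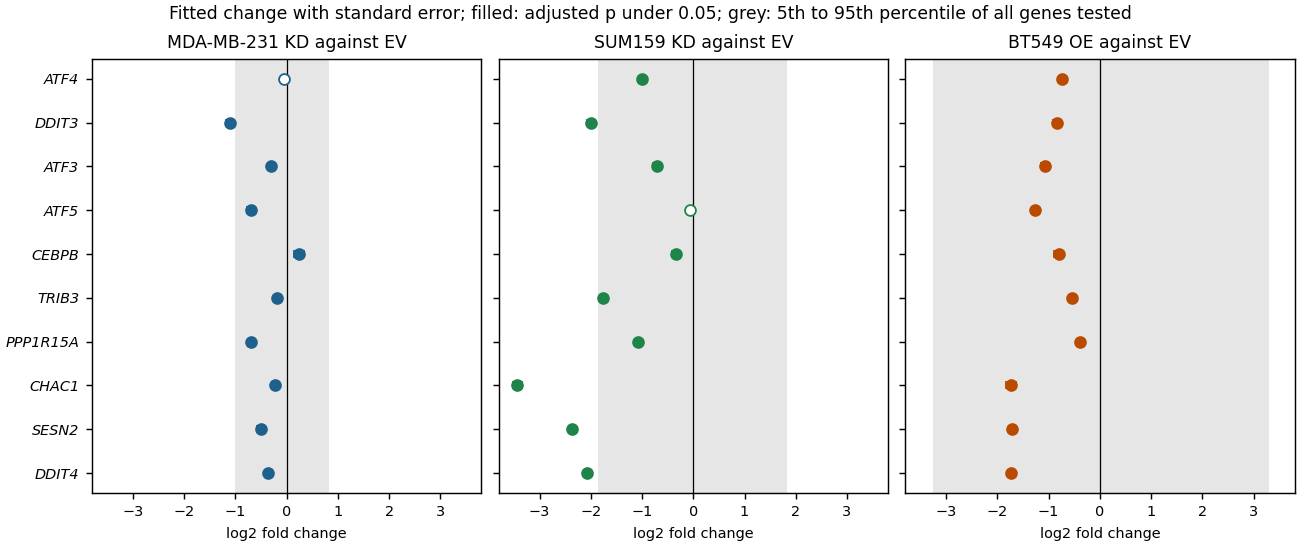
Log2 fold change of each gene with its standard error (bars, mostly smaller than the dots) in the 3 comparisons; filled dots passed an adjusted p of 0.05, open dots did not, and the grey band spans the 5th to 95th percentile of all genes tested. Most dots lie left of 0. ATF4 is open in MDA-MB-231 and ATF5 in SUM159. In SUM159 the dots of CHAC1, SESN2, DDIT4 and DDIT3 lie beyond the band, as does DDIT3 in MDA-MB-231. In BT549 all dots lie within the band.

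ATF4, on chr22:39519695-39522683, encodes the basic leucine zipper factor at the centre of the response. In MDA-MB-231 its level was 689.3 and 693.2 CPM in EV and 663.7 and 673.1 CPM in KD. The KD libraries were a little lower than the EV libraries without overlap, and the difference did not pass the test (log2 fold change -0.05, SE 0.03, edgeR adjusted p = 0.192). SUM159 had 786.6 and 823.7 CPM in EV and 399.0 and 400.3 CPM in KD, so that KD was 2.01-fold lower (log2 fold change -1.01, SE 0.03, edgeR adjusted p = 8.23e-19). The BT549 libraries had 199.1 and 191.2 CPM in EV and 117.2 and 116.1 CPM in OE, a log2 fold change of -0.74 (SE 0.03, edgeR adjusted p = 2.51e-15). Thus ATF4 mRNA fell in 1 KD line and in the OE line. Under library size alone ATF4 in MDA-MB-231 had a log2 fold change of -0.14 and passed the test, and it also passed, at -0.06, when only the groups of each comparison were fitted. ATF4-206 carried 97.57% of the ATF4 counts.

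DDIT3, on chr12:57516588-57521737, encodes CHOP, a C/EBP family factor induced by ATF4 and known for its part in cell death under lasting stress. It was the gene with the largest fall of the 10 in MDA-MB-231, with 35.1 and 33.0 CPM in EV and 14.9 and 16.6 CPM in KD (2.16-fold lower, log2 fold change -1.11, SE 0.08, edgeR adjusted p = 9.14e-11). In SUM159 the EV libraries held 36.0 and 37.5 CPM and both KD libraries 9.2 CPM, which is 4.01-fold lower (log2 fold change -2.00, SE 0.08, edgeR adjusted p = 1.02e-15). BT549 fell from 30.9 and 31.2 CPM to 16.5 and 18.1 CPM (log2 fold change -0.84, SE 0.08, edgeR adjusted p = 1.89e-09). The 3 EV groups were close to each other, at means of 34.1, 36.8 and 31.0 CPM, and all libraries of the manipulated groups lay below all EV libraries. DDIT3 shares 355 exonic bases with MARS1 and 58 with MBD6 on the opposite strand, and whether counting used the strand is not given in the sources used here, so reads from these stretches may belong to either gene. MARS1 fell by 2.56 on the log2 scale in SUM159 KD (SE 0.04), by 0.26 in MDA-MB-231 KD (SE 0.03) and by 0.12 in BT549 OE (SE 0.04). The part of these reads in the DDIT3 values was not tested.

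ATF3, on chr1:212565334-212620777, encodes a stress-induced factor that binds CRE and AP-1 sites. Its level in MDA-MB-231 was 56.2 and 53.0 CPM in EV and 42.2 and 45.7 CPM in KD (log2 fold change -0.31, SE 0.06, edgeR adjusted p = 0.000306). In SUM159 it was 28.7 and 28.3 CPM in EV against 17.2 and 17.8 CPM in KD (log2 fold change -0.70, SE 0.08, edgeR adjusted p = 2.98e-08). The fall was larger in BT549, from 53.9 and 51.4 CPM to 26.6 and 23.6 CPM (log2 fold change -1.07, SE 0.07, edgeR adjusted p = 2.17e-12). EV and manipulated libraries did not overlap in any line.

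ATF5, on chr19:49928702-49933935, encodes a factor of the ATF4 subfamily that is also controlled through its leader and is known for the mitochondrial stress response. It fell in the KD line in which ATF4 did not pass the test, and did not pass in the line in which ATF4 fell. MDA-MB-231 had 28.8 and 25.3 CPM in EV and 17.2 and 16.2 CPM in KD, 1.62-fold lower (log2 fold change -0.70, SE 0.08, edgeR adjusted p = 2.72e-07). In SUM159 the values were 67.4 and 69.0 CPM in EV and 66.6 and 63.9 CPM in KD, which did not pass the test (log2 fold change -0.06, SE 0.06, edgeR adjusted p = 0.359). BT549 had the highest level, 141.1 and 141.6 CPM in EV, and 62.3 and 54.7 CPM in OE (log2 fold change -1.27, SE 0.06, edgeR adjusted p = 1.6e-15). The difference of the KD effects was -0.63 (SE 0.10). ATF5 shares 565 exonic bases with NUP62 and 75 with IL4I1 on the opposite strand. NUP62 changed by 0.26 in MDA-MB-231 KD, -0.27 in SUM159 KD and -0.90 in BT549 OE on the log2 scale, and IL4I1 fell by 5.47 in BT549 OE, from 66.8 and 66.6 CPM to 1.6 and 1.4 CPM. Their part in the ATF5 values was not tested.

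CEBPB, on chr20:50190830-50192668, encodes a C/EBP factor that pairs with ATF4 on the composite element. It had the widest spread between libraries of the 10 genes in several groups. MDA-MB-231 had 120.9 and 151.6 CPM in EV and 156.9 and 164.8 CPM in KD, the only rise among the 10 genes in a KD or OE comparison (log2 fold change 0.24, SE 0.09, edgeR adjusted p = 0.045). That call was lost with DESeq2 and with scaling by library size alone, and also without EV replicate 1 (log2 fold change 0.08) or either KD replicate of MDA-MB-231, without EV replicate 1 of SUM159 and without either OE replicate of BT549. SUM159 had 403.0 and 371.8 CPM in EV and 335.8 and 281.0 CPM in KD (log2 fold change -0.33, SE 0.08, edgeR adjusted p = 0.00135). DESeq2 did not call this fall either, and it was -0.20 and not called without KD replicate 2 of SUM159. In BT549 the level went from 187.1 and 233.2 CPM to 126.5 and 115.4 CPM (log2 fold change -0.80, SE 0.09, edgeR adjusted p = 6.76e-08). CEBPB-AS1, an antisense RNA that shares 231 exonic bases with CEBPB, was at 3.0 CPM or less in these libraries.

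**Figure D3:**
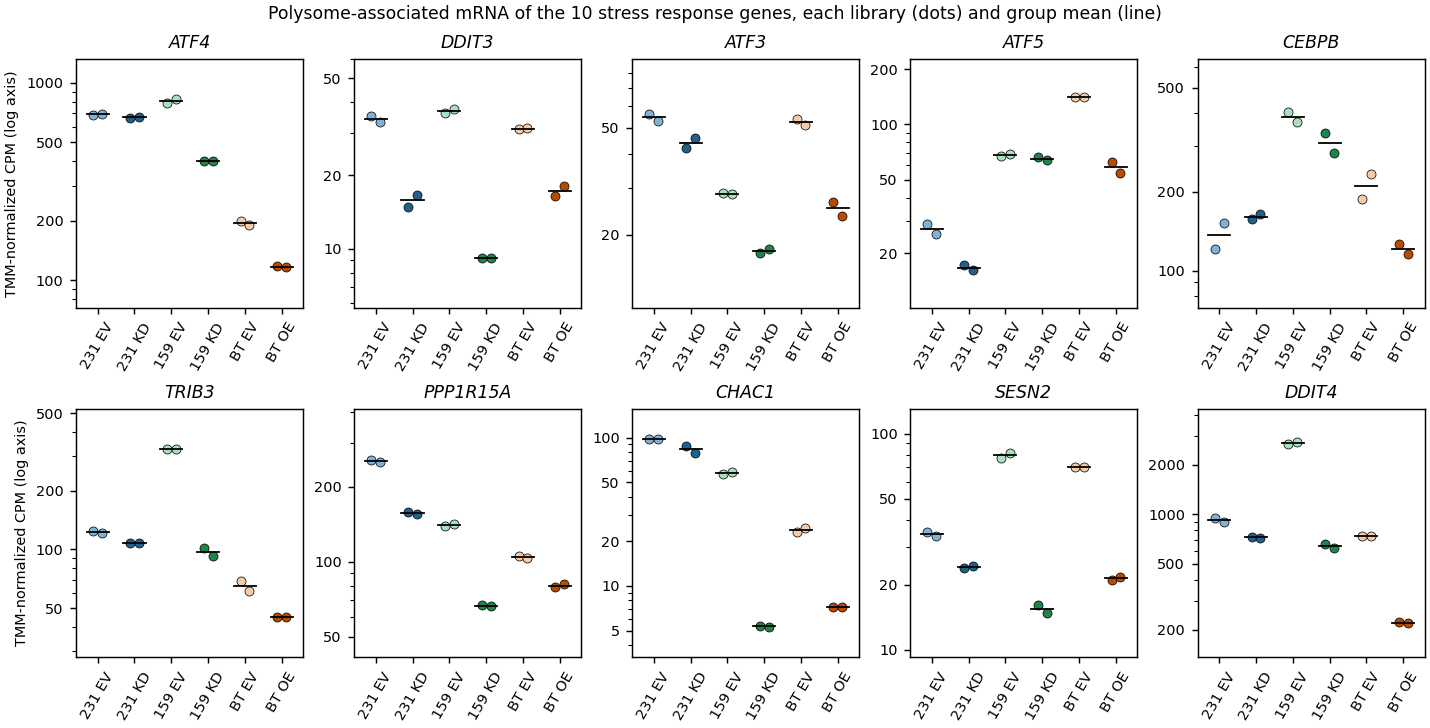
Level of each of the 10 genes (y axis, TMM-normalized CPM, log scale) in the 12 libraries, with dots for libraries and a line for the mean of each group (231, MDA-MB-231; 159, SUM159; BT, BT549). KD or OE lies below EV of the same line in nearly every panel; the exception is CEBPB in MDA-MB-231, and ATF4 in MDA-MB-231 and ATF5 in SUM159 are close to level.

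Among the feedback and effector genes, TRIB3, on chr20:362835-397559, encodes a pseudokinase that dampens ATF4 and DDIT3. MDA-MB-231 had 124.7 and 122.0 CPM in EV and 107.4 and 108.4 CPM in KD, a small fall (log2 fold change -0.19, SE 0.05, edgeR adjusted p = 0.00163). In SUM159 the level was 328.9 and 327.6 CPM in EV and 101.5 and 92.1 CPM in KD, 3.40-fold lower (log2 fold change -1.76, SE 0.04, edgeR adjusted p = 8.97e-20). BT549 went from 68.7 and 61.5 CPM to 44.9 CPM in both OE libraries (log2 fold change -0.54, SE 0.06, edgeR adjusted p = 1.39e-08).

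PPP1R15A, on chr19:48872212-48876059, encodes the GADD34 subunit that directs protein phosphatase 1 to eIF2α. It fell in all 3 comparisons. MDA-MB-231 had 256.9 and 251.9 CPM in EV and 158.2 and 155.1 CPM in KD (1.62-fold lower, log2 fold change -0.70, SE 0.03, edgeR adjusted p = 1.97e-13). SUM159 had 138.9 and 141.1 CPM in EV and 66.9 and 66.2 CPM in KD (2.10-fold lower, log2 fold change -1.07, SE 0.04, edgeR adjusted p = 5.8e-17). The fall in BT549, from 105.6 and 103.7 CPM to 78.8 and 81.2 CPM, was the smallest of the 10 there (log2 fold change -0.39, SE 0.04, edgeR adjusted p = 7e-09).

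CHAC1, on chr15:40952962-40956512, encodes an enzyme that degrades glutathione. Its range over all libraries was the widest of the 10 genes, 18.4-fold from 5.3 to 98.1 CPM. SUM159 had 57.0 and 58.6 CPM in EV and 5.4 and 5.3 CPM in KD, 10.8-fold lower (log2 fold change -3.43, SE 0.08, edgeR adjusted p = 6.17e-20). These KD values rest on 128 and 147 counts. Of all genes tested, 326 had a lower log2 fold change in SUM159 KD, or 1.97%. In MDA-MB-231 the level was 97.8 and 98.1 CPM in EV and 88.2 and 78.7 CPM in KD (log2 fold change -0.23, SE 0.05, edgeR adjusted p = 0.00114), and this call was lost without KD replicate 2 of MDA-MB-231 (log2 fold change -0.15). BT549 had 23.2 and 24.6 CPM in EV and 7.2 CPM in both OE libraries (3.32-fold lower, log2 fold change -1.73, SE 0.10, edgeR adjusted p = 7.37e-14).

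SESN2, on chr1:28259518-28282491, encodes sestrin 2, a leucine-sensing inhibitor of mTORC1. Its level was 35.2 and 33.7 CPM in EV and 24.0 and 24.3 CPM in KD of MDA-MB-231 (log2 fold change -0.51, SE 0.06, edgeR adjusted p = 9.01e-07). SUM159 fell from 77.3 and 81.5 CPM to 16.1 and 14.8 CPM, 5.16-fold (log2 fold change -2.37, SE 0.06, edgeR adjusted p = 3.48e-19). BT549 fell from 70.4 and 69.7 CPM to 21.0 and 21.8 CPM, 3.27-fold (log2 fold change -1.71, SE 0.06, edgeR adjusted p = 3.86e-17). The manipulated libraries of SUM159 and BT549 were below those of MDA-MB-231 KD, although their EV libraries were above MDA-MB-231 EV.

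DDIT4, on chr10:72273919-72276036, encodes REDD1, another inhibitor of mTORC1. It was the most abundant of the 10 genes in CPM in each of the 6 groups. The level was 956.2 and 903.1 CPM in EV and 728.3 and 722.8 CPM in KD of MDA-MB-231 (log2 fold change -0.36, SE 0.03, edgeR adjusted p = 1.7e-09). SUM159 had 2676.8 and 2728.4 CPM in EV and 663.8 and 625.5 CPM in KD (4.19-fold lower, log2 fold change -2.07, SE 0.03, edgeR adjusted p = 5.77e-24). BT549 had 737.3 and 737.7 CPM in EV and 222.6 and 218.0 CPM in OE (3.35-fold lower, log2 fold change -1.74, SE 0.03, edgeR adjusted p = 7.83e-23).

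Compared per length, DDIT4 had the highest level of the 10 genes in 5 groups, and ATF4 in MDA-MB-231 KD. For this, counts were divided by transcript length and summed per gene, and each library was then rescaled to the same total. These per-length levels carry no TMM factor and cannot be set beside the CPM values given elsewhere. In MDA-MB-231 EV, the per-length level of DDIT4 was 1127 ± 47.1 and that of ATF4 was 1001 ± 4.83 (SD, n = 2). SESN2 was lowest there at 20.5 ± 0.611. In SUM159 EV the level of DDIT4 was 2862 ± 8.55 and that of ATF4 was 1017 ± 25.0 (SD, n = 2), with ATF3 lowest at 31.9 ± 2.25. In BT549 EV the values per length were 686 ± 0.415 for DDIT4, 214 ± 4.78 for ATF4 and 24.7 ± 1.25 for CHAC1, the lowest (SD, n = 2).

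The EV groups also differed from each other before any change of TRMT112. These comparisons use the same EV libraries as the KD and OE comparisons. The lines were grown in different media, SUM159 with added insulin and hydrocortisone, so line and medium cannot be told apart. BT549 EV also carried another control construct, under G418 instead of puromycin, which cannot be told apart from line either. Between SUM159 EV and MDA-MB-231 EV, 6 of the 10 genes were higher in SUM159, 3 were lower and DDIT3 did not pass. Most genes differed here, 75.7% of all genes tested in either direction. Of the 16538 genes tested, 6491 were higher and 6021 lower in SUM159. DDIT4 was 2.91-fold, CEBPB 2.84-fold, TRIB3 2.66-fold, ATF5 2.52-fold and SESN2 2.30-fold higher in SUM159, and ATF4 1.16-fold. ATF3, PPP1R15A and CHAC1 were 1.91-, 1.82- and 1.69-fold lower.

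Between BT549 EV and MDA-MB-231 EV, 3 genes were higher (ATF5, SESN2 and CEBPB), 5 were lower and 2, DDIT3 and ATF3, did not pass. Of all genes, 79.5% were called, 6463 genes higher and 6689 lower in BT549. ATF4 was 3.54-fold, CHAC1 4.10-fold and PPP1R15A 2.43-fold lower in BT549, whereas ATF5 was 5.22-fold higher. With library size alone the median of all genes moved to -0.34 in this comparison, and DDIT3 and ATF3 were then called lower, at -0.45 and -0.37 on the log2 scale. DDIT3 was also called lower with a minimum mean of 50 counts (-0.18) and with its main transcript tested singly (-0.40). Against SUM159 EV, BT549 EV was lower for 8 of the 10 genes and higher for ATF5 and ATF3. Of all genes, 78.4% were called, 6732 genes lower and 6239 higher in BT549. TRIB3 was 5.04-fold and ATF4 4.12-fold lower in BT549. The smallest differences there, DDIT3 at -0.24 (SE 0.07) and SESN2 at -0.18 (SE 0.05), lost their call with DESeq2, and SESN2 also without EV replicate 2 of SUM159 (-0.14). Both genes also lost this call when their main transcript was tested singly, and SESN2 with scaling by RLE factors in place of TMM (-0.10). In the order of the 6 group means, neighbouring groups overlapped for DDIT3 (MDA-MB-231 KD and BT549 OE) and ATF3 (BT549 EV and MDA-MB-231 EV). They also overlapped for CEBPB (BT549 OE and MDA-MB-231 EV), and for no other gene of the 10. Such overlaps were not counted over all genes, so this separation cannot be read as a trait of the 10 genes.

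Over all 12 libraries together, the main transcript held 84.37% of the counts or more for each of the 10 genes. In single libraries the share was lower, down to 63.9% for ATF5-201 in MDA-MB-231 KD, and 73.2% for DDIT3-201 and 73.4% for TRIB3-201 in BT549 OE. Single transcripts of the table were tested in a fit of their own, in which 3.70% of 64066 transcripts were called in MDA-MB-231 KD, 13.2% in SUM159 KD and 22.1% in BT549 OE. Called forms of TRIB3 moved in opposite directions in BT549. TRIB3-201, the main form, fell from 64.5 and 57.3 CPM in EV to 32.5 and 34.2 CPM in OE (log2 fold change -0.87, SE 0.06, edgeR adjusted p = 3.15e-06). TRIB3-203 rose from 2.9 and 3.4 CPM to 11.8 and 10.8 CPM (log2 fold change 1.83, SE 0.21, edgeR adjusted p = 0.000118). Its share of the TRIB3 counts went from 5.00% ± 0.954 in EV to 25.3% ± 1.84 in OE (SD, n = 2). In SUM159 KD both forms fell, TRIB3-201 by 1.79 and TRIB3-203 by 1.63 on the log2 scale, and the share of TRIB3-203 was 9.08% ± 0.196 in EV and 9.94% ± 1.68 in KD (SD, n = 2). In MDA-MB-231 KD, TRIB3-203 fell from 3.6 CPM in both EV libraries to 1.7 and 1.6 CPM (log2 fold change -1.13, SE 0.22, edgeR adjusted p = 0.0213), while TRIB3-201 did not pass the test (log2 fold change -0.18). The share of TRIB3-203 was 2.82% ± 0.0521 in EV and 1.47% ± 0.0797 in KD there (SD, n = 2), lower in KD, where in BT549 it was higher in OE. TRIB3-203 begins 486 bases downstream of TRIB3-201, at an exon of its own (chr20:381246-381500), so it does not hold the first exon in which the 3 TTGCATCA matches lie. Both have 4 exons, and 2 of them have the same ends, so reads of the shared exons were divided between the forms by estimation. The annotation marks the 3′ end of TRIB3-203 as incomplete.

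**Figure D4:**
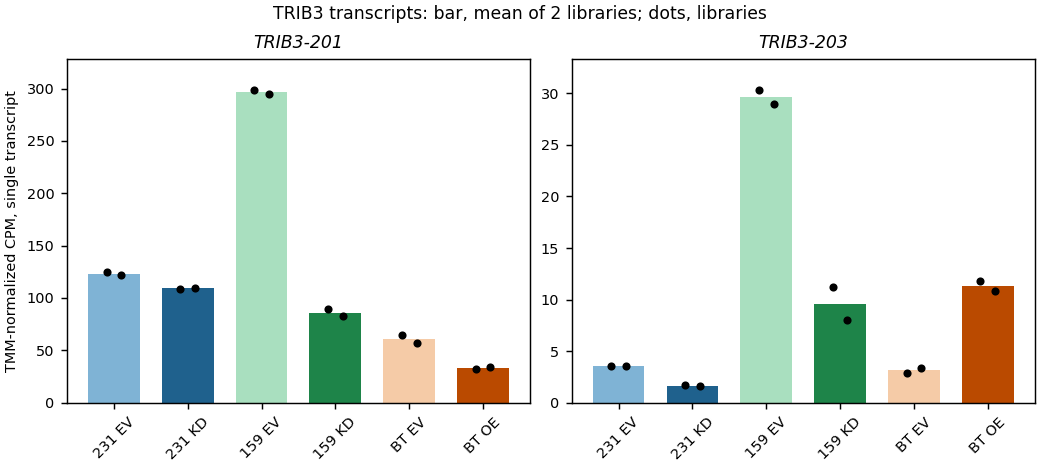
Level of TRIB3-201 (left) and TRIB3-203 (right) in the 6 groups (y axis, TMM-normalized CPM, from 0; the scales differ), with bars for the mean of 2 libraries and dots for the libraries (231, MDA-MB-231; 159, SUM159; BT, BT549). In BT549 OE (BT OE) the left bar is below that of EV and the right bar above it, at 11.8 and 10.8 CPM.

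Other secondary forms followed their gene or could not be told from no change. DDIT4-204, annotated as a target of nonsense-mediated decay, fell by 1.90 in SUM159 KD (SE 0.16) and by 2.35 in BT549 OE (SE 0.17) on the log2 scale, beside DDIT4-201 at -2.11 and -1.68. DDIT3-202 fell by 2.73 in SUM159 KD (SE 0.38) on the same scale, from 6.4 and 5.7 CPM to 1.0 and 0.8 CPM. The level of ATF5-202 in BT549 was 14.0 and 12.6 CPM in EV and 15.4 and 10.6 CPM in OE, not called (log2 fold change -0.03, SE 0.31), while ATF5-201 fell by 1.51 (SE 0.11). Its share of the ATF5 counts was 9.55% ± 0.772 in EV and 22.2% ± 4.06 in OE of BT549 (SD, n = 2).

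The wider pathway was described with gene lists, whose counts are to be read against all genes tested. Of these, 16.5% fell and 21.2% rose in MDA-MB-231 KD, 31.4% fell and 28.6% rose in SUM159 KD, and 35.0% fell and 35.6% rose in BT549 OE. For the upstream part, the list of ISR sensors and eIF2 (kinases, eIF2 and eIF2B subunits, phosphatase parts and the mitochondrial relay DELE1 and OMA1) holds 20 genes, all tested. In MDA-MB-231 KD, 7 of them rose and 2 fell, with a median log2 fold change of 0.07. In SUM159 KD, 4 rose and 14 fell, with a median of -0.29, and in BT549 OE 11 rose and 7 fell, with a median of 0.16. The share that fell in BT549 OE, 35.0% of the list, was that of all genes, while 70.0% of the list fell in SUM159 KD. EIF2S1, which encodes eIF2α, had log2 fold changes of -0.28 (SE 0.04), -0.74 (SE 0.04) and -0.45 (SE 0.04) in the 3 comparisons and was called in each. EIF2AK3, the PERK kinase of the endoplasmic reticulum, rose in each, by 0.29 (SE 0.07), 0.64 (SE 0.07) and 0.33 (SE 0.10) on the log2 scale. The largest change of the list was in EIF2AK2, the PKR kinase activated by double-stranded RNA, which fell by 2.34 (SE 0.05) in BT549 OE, from 154.9 and 149.3 CPM to 30.5 and 29.4 CPM. EIF2B4, a subunit of the exchange factor of eIF2, fell by 1.07 (SE 0.07) in SUM159 KD and rose by 0.98 (SE 0.07) in BT549 OE. PPP1R15B, the constitutive counterpart of PPP1R15A, rose by 0.36 (SE 0.05) in MDA-MB-231 KD.

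For the downstream part, the list of ATF4 targets of amino acid metabolism and transport has 20 genes, all tested. In MDA-MB-231 KD, 15 fell and 3 rose (median log2 fold change -0.26). In SUM159 KD, 17 fell and 1 rose (median -1.67), a larger median fall than that of the 10 genes themselves. In BT549 OE, 12 fell and 6 rose (median -0.50). The shares that fell were 75%, 85.0% and 60%, against 16.5%, 31.4% and 35.0% of all genes, and the 30% that rose in BT549 OE compares with 35.6% of all genes. SLC7A11, the cystine transporter, fell by 4.31 (SE 0.06) in SUM159 KD, from 214.2 and 206.4 CPM to 11.2 and 10.1 CPM. ASNS, the asparagine synthetase, had log2 fold changes of -0.82, -2.73 and -0.59 in the 3 comparisons, and PSAT1 of serine synthesis had -0.44, -2.68 and -1.13, all called. SLC7A5, a carrier of large neutral amino acids, rose by 0.49 (SE 0.03) in MDA-MB-231 KD, and SLC38A2, a carrier of small neutral amino acids, rose by 0.57 (SE 0.03) in SUM159 KD. In BT549 OE, SLC6A9, a glycine carrier, fell by 1.64 (SE 0.05), while GPT2, a mitochondrial alanine aminotransferase, rose by 1.32 (SE 0.05).

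The 20 cytosolic tRNA synthetase genes are charging enzymes for protein synthesis, and many of them are known ATF4 targets. Of these, 15 fell and 0 rose in MDA-MB-231 KD (median log2 fold change -0.19), and the other 5 did not pass. All 20 fell in SUM159 KD (median -1.16), where MARS1 had the largest fall, from 324.6 and 343.2 CPM to 57.4 and 56.1 CPM. In BT549 OE, 11 rose and 6 fell (median 0.30). Against the shares of all genes that fell (16.5%, 31.4% and 35.0%), those of the synthetases were 75% and 100.0% in the KD lines, and 30% in BT549 OE, which is near the background. There 55.0% of them rose, against 35.6% of all genes. KARS1 rose by 1.19 (SE 0.04) there and WARS1, which is also known as an interferon-induced gene, fell by 2.37 (SE 0.04). In MDA-MB-231 KD, TARS1 fell by 0.38 (SE 0.03).

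The list of other ATF4 target genes had 18 of 20 genes tested, of which 11 fell and 3 rose in MDA-MB-231 KD (median log2 fold change -0.34), 14 fell and 2 rose in SUM159 KD (median -0.75), and 10 fell and 6 rose in BT549 OE (median -0.28). The list's shares that fell were 61.1%, 77.8% and 55.6%, against 16.5%, 31.4% and 35.0% of all genes, and the 33.3% that rose in BT549 OE was near the 35.6% of all genes. GDF15, a secreted stress signal, fell by 0.82, 2.70 and 0.86 on the log2 scale in the 3 comparisons. PMAIP1, which encodes the pro-apoptotic protein NOXA, fell by 3.79 (SE 0.14) in SUM159 KD. SQSTM1, an autophagy receptor, rose by 0.56 (SE 0.03) in MDA-MB-231 KD. VLDLR, a lipoprotein receptor, rose by 1.83 (SE 0.17) in SUM159 KD and fell by 3.15 (SE 0.12) in BT549 OE.

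**Figure D5:**
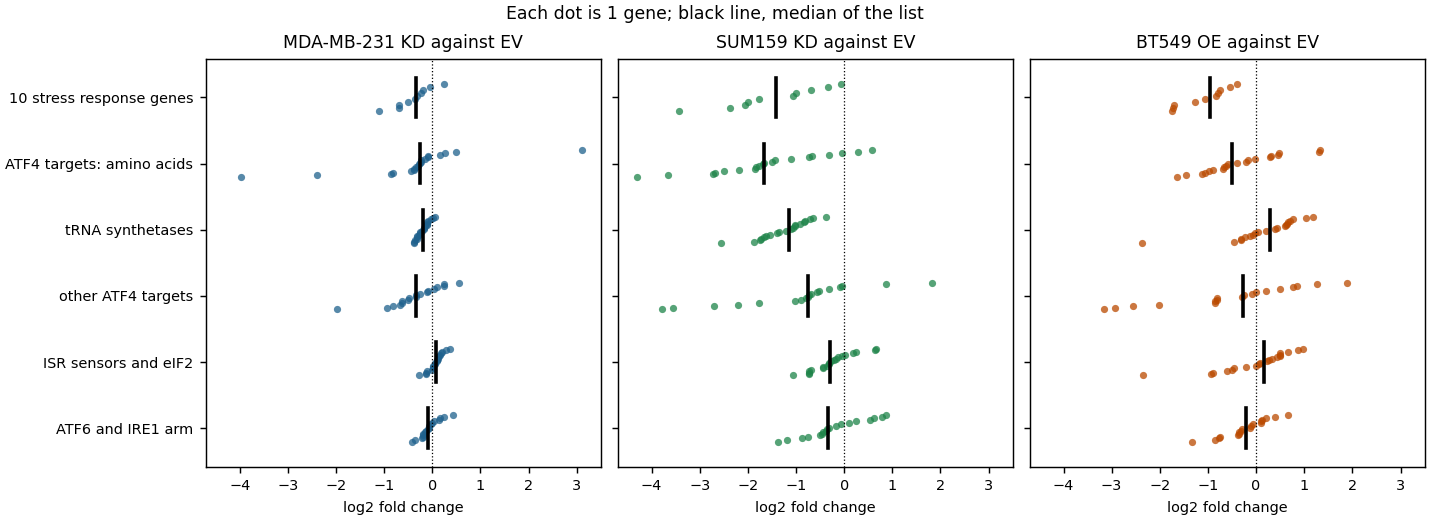
Log2 fold change of every tested gene (dots) of the 10 genes and of 5 lists of the pathway in the 3 comparisons, with the median of each list as a black line. The medians of the tRNA synthetases are -0.19, -1.16 and 0.30, and the outlying dots in MDA-MB-231 at -3.98 and 3.10 are PHGDH and CBS, which did not pass the test.

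The other arms of the endoplasmic reticulum stress response had called genes in both directions in each comparison. Of 18 genes of the ATF6 and IRE1 arm, 5 fell and 3 rose in MDA-MB-231 KD (median log2 fold change -0.08), 10 fell and 6 rose in SUM159 KD (median -0.33), and 11 fell and 6 rose in BT549 OE (median -0.21). The shares that fell were 27.8%, 55.6% and 61.1%, against 16.5%, 31.4% and 35.0% of all genes, and the 33.3% that rose in SUM159 KD and in BT549 OE were near the 28.6% and 35.6% of all genes. HSPA5, the chaperone BiP, fell by 0.42 (SE 0.04) in MDA-MB-231 KD, rose by 0.53 (SE 0.04) in SUM159 KD and fell by 1.33 (SE 0.04) in BT549 OE. ATF6 fell by 1.38 (SE 0.08) in SUM159 KD, and MANF, a secreted ER stress protein, rose there by 0.87 (SE 0.03). EDEM1 of ER-associated degradation rose by 0.43 (SE 0.04) in MDA-MB-231 KD, and the chaperone HYOU1 rose by 0.67 (SE 0.04) in BT549 OE.

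The last lists cover neighbouring pathways, and their counts are read against the same shares of all genes, 16.5%, 31.4% and 35.0% lower and 21.2%, 28.6% and 35.6% higher in the 3 comparisons. Of 17 CEBP and AP-1 partners tested, 6 fell and 3 rose in MDA-MB-231 KD (median log2 fold change -0.13), 12 fell and 3 rose in SUM159 KD (median -0.46), and 10 fell and 2 rose in BT549 OE (median -0.22). JUNB fell by 1.51 (SE 0.06) and JUN rose by 1.27 (SE 0.05) in SUM159 KD. Of 16 hypoxia genes, DDIT4 being a known target of hypoxia, 4 fell and 6 rose in MDA-MB-231 KD (median 0.03), 6 fell and 7 rose in SUM159 KD (median 0.09), and 6 fell and 9 rose in BT549 OE (median 0.39). The 37.5% of hypoxia genes that fell in SUM159 KD and in BT549 OE were near the background, and 43.8% and 56.2% rose. CA9, the carbonic anhydrase of hypoxic cells, fell by 3.09 (SE 0.20) in MDA-MB-231 KD, from 5.2 and 5.0 CPM to 0.7 and 0.5 CPM, and rose by 1.36 (SE 0.07) in SUM159 KD. Of 14 immediate early genes, 8 fell and 1 rose in MDA-MB-231 KD (median -0.41), 6 fell and 3 rose in SUM159 KD (median -0.57), and 6 fell and 7 rose in BT549 OE (median 0.40). EGR1 fell by 2.49 (SE 0.09) in MDA-MB-231 KD and rose by 1.79 (SE 0.10) in BT549 OE, and KLF4 had log2 fold changes of -1.76 (SE 0.08) in SUM159 KD and -2.39 (SE 0.05) in BT549 OE.

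Finally, the genes most like ATF4 and DDIT3 were found by Pearson's r of log2 CPM over the 12 libraries, which fall into 3 lines and 6 groups and are not independent points. For ATF4 they were DGKA (r = 0.995), EIF3A (r = 0.993) and SMC3 (r = 0.990). With ATF4, TRIB3 stood at 0.862 (rank 942) and DDIT4 at 0.801 (rank 1439). CHAC1 was at 0.718, PPP1R15A at 0.656, CEBPB at 0.391, ATF3 at 0.185, SESN2 at 0.183 and ATF5 at -0.545. For DDIT3 the closest were UTP6 (r = 0.938), TMEM268 (r = 0.935) and ZNF507 (r = 0.926). SESN2 ranked 12 with DDIT3 (r = 0.883), whereas ATF4 had r = 0.220 with DDIT3. For DDIT3 the 6 EV libraries lay above the 6 KD and OE libraries in all lines, which was not so for ATF4.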

How the data were processed

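Per the methods of the study, the authors trimmed the reads (Trimmomatic), mapped them with HISAT2 to GRCh38, discarded duplicate reads (SAMtools) and used DESeq2 in Partek. The counting tool, its annotation and its strand setting are not given in the sources used here, and the kit is named as a poly(A) kit in the labels and as a stranded total RNA kit in the methods. The deposited table holds expected counts (estimated counts) per Ensembl transcript, not normalized, for 12 libraries. In 10254 of 201932 rows the 8 columns of MDA-MB-231 and SUM159 hold a missing mark. It was taken as 0, and the unit of these columns was recorded as other for that reason.

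Transcripts were matched to GENCODE 44 without version (79.65%, with at least 99.25% of the counts of a library), summed per symbol and rounded. Library totals of 22954226 to 27434677 counts set the precision. Genes passing filterByExpr were fitted after TMM scaling by the quasi-likelihood method of edgeR 4.0.16 (R 4.3.3), with a mean for each of the 6 groups over all 12 libraries, which leaves 6 residual degrees of freedom. Adjusted p-values (Benjamini-Hochberg) cover 16538 genes, and a gene was called under 0.05. SE is the size of the log2 fold change over the square root of F. The fits were tested on simulated data. Python 3.11.15 and pandas 2.3.3 made the tables. Reads carry no molecular identifiers.

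The members and gene lists were chosen with earlier results of these data known. Named genes were all 10 members, the gene with the most extreme called change for each list, direction and comparison among genes averaging 50 or more counts, and the 3 genes most like ATF4 and DDIT3. Not every gene from that rule is described, a few of those left out were near 0, and 1 gene list is not reported here. EIF2S1 and GDF15 in all comparisons, EIF2AK3, ASNS, PSAT1 and HSPA5 in SUM159 were added after their values were seen. The alternatives were scaling by RLE factors or by library size only, DESeq2 1.42.0, fitting without a filter or with a minimum mean of 50 counts, a block for replicate numbers, fitting the compared groups alone, omitting transcripts with the missing mark, testing the main transcript singly, also requiring an absolute log2 change of 1, and leaving out each library.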

Additional observations from a re-analysis of the deposited data

Results flagged for a closer look

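The KD effect differed between MDA-MB-231 and SUM159 for all 10 genes, by the test of the difference in 1 model of all libraries (edgeR, log2 fold change in MDA-MB-231 minus that in SUM159). The difference was 3.20 for CHAC1, 1.85 for SESN2, 1.71 for DDIT4 and 1.57 for TRIB3. It was 0.96 for ATF4, 0.89 for DDIT3, 0.57 for CEBPB, 0.39 for ATF3 and 0.37 for PPP1R15A. ATF5 was the gene with the opposite sign, at -0.63. Each group had 2 libraries, and 27.7% of all genes tested had a difference above 0 and 23.2% below 0 by the same rule. ATF3 and CEBPB lost this call when their main transcript was tested singly.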

How the results depend on the processing

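Of 1470 values of the 70 log2 fold changes of the 10 genes under alternatives, 1439 kept direction and side of the threshold, 24 lost their call, 6 gained one and 1 reversed: DDIT3 between SUM159 EV and MDA-MB-231 EV, at 0.11 and not called, was -0.10 when its main transcript was tested singly. Testing the main transcript singly left 5 calls among the 10 genes in MDA-MB-231 KD (5 lower, 0 higher), and 2371 transcripts were called there, 22877 between BT549 EV and MDA-MB-231 EV and 20893 between BT549 EV and SUM159 EV, in a fit of more features with fewer counts each. The single rise of MDA-MB-231 KD, CEBPB, became 0 rises with library size only and with DESeq2, and ranged from 0 to 1 over the libraries left out. Also requiring a log2 change of 1 or more in size left 1 gene of the 10 in MDA-MB-231 KD (1 lower, 0 higher), 5 in BT549 OE (5 lower), and 4 for the difference of the KD effects (4 higher, 0 lower). Between EV groups it left 5 for SUM159 against MDA-MB-231 (0 lower), 5 for BT549 against MDA-MB-231 (3 lower) and 5 for BT549 against SUM159 (1 higher, 4 lower). Over all genes that rule left 530 in MDA-MB-231 KD, 2592 in SUM159 KD, 5183 in BT549 OE, 2478 for the difference, and 6100, 7514 and 7233 for the EV comparisons in the same order. Scaling by library size only moved the share of calls that were higher in MDA-MB-231 KD from 56.2% to 36.7%, and between BT549 EV and MDA-MB-231 EV from 49.1% to 38.4%. With the replicate block, 9, 9 and 10 of the 10 genes were called in MDA-MB-231 KD, SUM159 KD and BT549 OE, as without it, and no call of the 10 genes changed. Same-numbered libraries did not deviate together (r = 0.00287, -0.0299 and 0.0161 in MDA-MB-231, SUM159 and BT549). Libraries prepared together need not deviate together, so this check cannot decide whether the numbers pair samples. Leaving out a library leaves 1 in its group, which is then assumed to vary like the others. CHAC1 in SUM159 KD rests on 128 and 147 counts, the lowest counts of the 10 genes.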
